A study of Drosophila melanogaster with 4 samples.

Results

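The 10 genes described here encode 6 caspases of Drosophila melanogaster, the adaptor Dark, which activates one of them, and 3 inhibitors of apoptosis. They were chosen by name, as Dronc, Dredd, Drice, Dcp-1, Decay, Damm, Dark, Diap1, Diap2 and Bruce, and are 10 of 13922 protein-coding genes on 6 chromosome arms. All 10 symbols matched a RefSeq gene table of the assembly the peak lists use (dm6). Every peak that lay on the span of a gene, from its lowest to its highest annotated base, or within 5 kb of it was taken. This gave 33 H3K27me3 peaks in the Cut knockdown and 2 in the control, and 55 H3K27ac peaks in the Cut knockdown and 49 in the control.

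The libraries came from nuclei sorted from embryos in which Cut, a homeodomain transcription factor encoded by ct, was knocked down by RNA interference (genotype Cut_KD), and from control embryos (genotype Control). Embryos of both genotypes carried wor-gal4 and UAS-dsRed, were collected over 16 h at 25 °C, and gave dsRed-positive nuclei. The wor driver is on in the nervous system from stage 11. The labels do not say which driver expressed the interfering RNA, nor what the control carried in its place. The sorted nuclei made up 0.5 to 3% of those of the embryo, and at least 50% of them were positive per the labels, so nuclei of other cells can be in each library. Chromatin immunoprecipitation and sequencing were done once for each of the 2 marks in each genotype. With 1 library per group no test between genotypes is possible, no difference below has a replicate check, and values are set side by side.

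Caspases are proteases made as inactive precursors. In flies the adaptor Dark assembles the initiator caspase Dronc, which then cleaves the effector caspases Drice and Dcp-1. Inhibitor of apoptosis proteins hold these caspases in check until Reaper, Hid and Grim displace them, and many embryonic neuroblasts die by this route. H3K27me3 is the histone mark of Polycomb repression, and H3K27ac is a mark of active promoters and enhancers.

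Some facts of the whole lists bear on every value below. The Cut knockdown had 18692 H3K27me3 peaks over 19.5 Mb, against 4238 peaks over 4.68 Mb in the control. For H3K27ac the Cut knockdown had 25519 peaks over 14.8 Mb, against 25941 peaks over 22.2 Mb in the control. How deeply each library was read is unknown, and peak number and length grow with depth. The share of nuclei that carry a mark and its level in each nucleus cannot be told apart. The targeted gene ct (X:7608428-7678859) had 5.36 kb of H3K27me3 in the Cut knockdown and 2.49 kb in the control, and 2.42 kb of H3K27ac in the Cut knockdown and 1.01 kb in the control. Peaks measure no transcript, so these values do not check the knockdown. As a check of the labelled cell type, H3K27ac lay on 7 of 7 neuroblast marker genes in the Cut knockdown and on 6 of 7 in the control, where ase had none. It also lay on 18 of 21 markers of other embryonic tissues (neurons, glia, muscle, epidermis, trachea, gut, blood and fat) in the Cut knockdown, with none on alrm, Hml and He, and on 20 of 21 in the control, with none on He. Of all genes, 70.2% had H3K27ac on the span in the Cut knockdown and 73.8% in the control, so the marker counts do not set neuroblasts apart. Summed over a list, H3K27ac covered 26.9 kb of the neuroblast markers in the Cut knockdown and 25.5 kb in the control, of which pros, a gene of 79.1 kb, held 17.1 kb in the Cut knockdown and 14.4 kb in the control. The 5 other lists, of 4 or 5 genes of other lengths, had 3.62 to 20.0 kb in the Cut knockdown and 4.91 to 39.5 kb in the control. H3K27me3 lay on 6 of 7 neuroblast markers in the Cut knockdown, wor among them, and on 1 of 7 in the control. It lay on 20 of 21 markers of other tissues in the Cut knockdown and on 12 of 21 in the control. Of all genes, 61.6% had H3K27me3 on the span in the Cut knockdown and 11.0% in the control. The part of other cells in the results was not tested.

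To ask whether the repressive mark differed at the death machinery, H3K27me3 peaks were first counted on the gene spans. In the Cut knockdown 8 of the 10 genes had a peak on their span, all but Drice and Damm, where 61.6% of all protein-coding genes had one. In the control 1 of the 10 had one, Diap1, where 11.0% of all protein-coding genes did. Thus 7 of the 10 were marked in the Cut knockdown alone, against 51.8% of all genes. With peaks within 5 kb included the counts were 10 of 10 in the Cut knockdown (92.6% of all genes) and 2 of 10 in the control (23.2% of all genes). The other 8 genes had no control H3K27me3 peak in that range. The nearest lay 15.6 kb from Drice, 16.5 kb from Dcp-1 and 78.6 kb from Dark. Most genes of the genome had the same direction, so the counts of the 10 genes are read against those shares. The Cut knockdown count rested on the lower peaks of its list. It became 3 of 10 when only peaks at -log10 q 2 or above were kept (19.8% of all genes) and 3 at a fold of 2 or above (20.3%). The control had none under either, where 2.94% and 2.13% of all genes had a control peak. When the longer list was trimmed, by rank of -log10 q, to the covered length of the shorter, 1 gene was marked in the Cut knockdown (12.1% of all genes), Diap2, and 1 in the control, Diap1. Without peaks that overlapped H3K27ac of either genotype, 1 was left in the Cut knockdown (9.63% of all genes), Dredd. None was left in the control (4.46% of all genes).

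In summed length, the 10 spans had 11.0 kb of H3K27me3 in the Cut knockdown, against 0.484 kb in the control. The difference of 10.5 kb shrank to 1.86 kb with either stricter threshold, to 0.723 kb without peaks that overlapped H3K27ac, and to 0.124 kb after the trim to equal length. Bruce held 4.52 kb and Diap1 2.42 kb of the Cut knockdown sum. As a median over the genes, the covered share of the span was 21.3% in the Cut knockdown and 0 in the control, against 10.9% in the Cut knockdown and 0 in the control over all protein-coding genes. The mean share in the Cut knockdown was nearly the same, at 22.0% for the 10 genes and 21.5% for all genes. The median span was 2.40 kb, against 2.16 kb over all genes. Cover was patchy. Only Decay had at least 50% of its span covered in the Cut knockdown, at 59.9%, where 15.5% of all genes passed that bound. None of the 10 passed it in the control (2.04% of all genes).

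**Figure D1:**
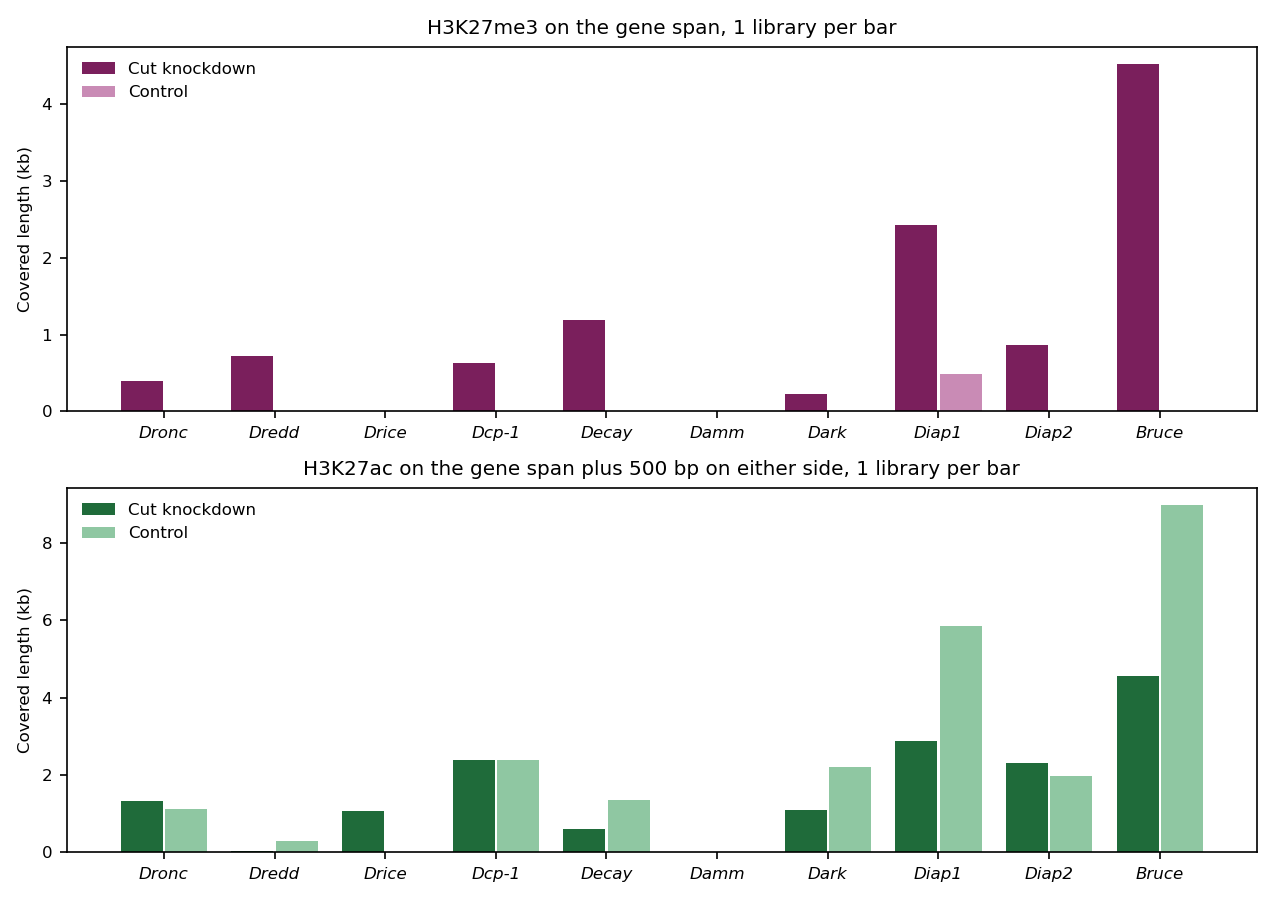
Length covered by peaks (kb) for each gene, with H3K27me3 on the gene span above and H3K27ac on the span plus 500 bp on either side below; each bar is 1 library, dark for the Cut knockdown and light for the control. H3K27me3 stands on 8 genes in the Cut knockdown and on Diap1 alone in the control. H3K27ac is longer in the control for Dredd, Decay, Dark, Diap1 and Bruce and nearly level at Dcp-1. It is longer in the Cut knockdown for Dronc and Diap2 and present at Drice in the Cut knockdown only.

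For H3K27ac a gene was counted when a peak lay on its span or within 500 bp. By this count 9 of the 10 genes were marked in the Cut knockdown (76.9% of all genes) and 8 of the 10 in the control (80.1% of all genes). Both lists marked 8 genes (69.7% of all genes). Drice was marked in the Cut knockdown only (7.17% of all genes) and none in the control only (10.4% of all genes). Damm was marked in neither (12.7% of all genes). Within 5 kb all 10 had H3K27ac in the Cut knockdown (95.5% of all genes) and all 10 in the control (96.9% of all genes). Over the spans plus 500 bp the mark covered 16.3 kb in the Cut knockdown and 24.2 kb in the control, a difference of -7.85 kb. Cover was higher in the Cut knockdown at 3 genes, Dronc, Drice and Diap2, and lower at 6, of which Dcp-1 differed by -0.005 kb. Of all genes, 28.0% were higher and 59.1% lower. On the spans alone cover was higher at 3 of the 10, lower at 4 and equal at 3, where 27.1% of all genes were higher and 54.1% lower. The summed difference of -7.85 kb changed sign with the peak threshold. It was 0.936 kb when only peaks at -log10 q 2 or above were kept. It was 1.88 kb after the trim to equal length.

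**Figure D2:**
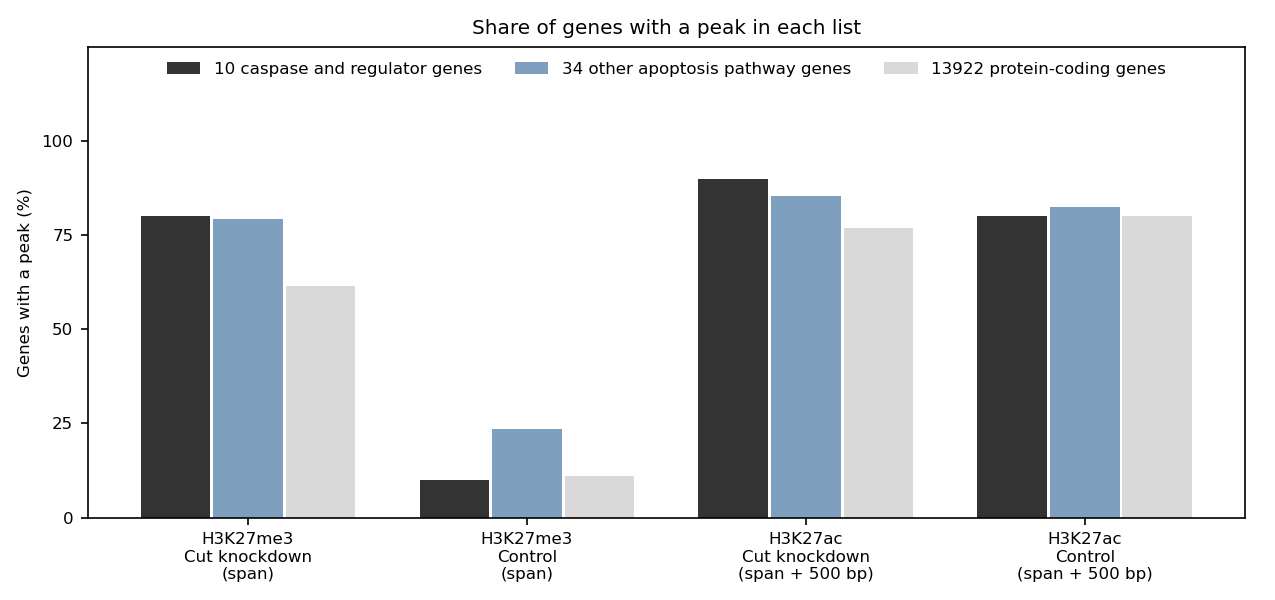
Share of genes with a peak (%) in each of the 4 lists, for the 10 caspase and regulator genes, 34 other genes of the apoptosis pathway and all 13922 protein-coding genes. The 10 genes stand at 80% for H3K27me3 in the Cut knockdown and 10% in the control, beside 61.6% and 11.0% of all genes in the same lists.

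Among the initiator caspases, Dronc, the caspase activated on the Dark scaffold, kept H3K27ac at the same place in both genotypes. On its span (3L:9968479-9971002) the Cut knockdown had 1 H3K27ac peak of 1178 bp with a fold enrichment of 2.49, and the control had 1 of 1124 bp with a fold of 2.03. Folds are the authors' deposited values over background, and those of different lists may differ in scale. The peaks began 7 bp apart and covered the same end of the gene, the end with the lower coordinate. Within the Cut knockdown peak lay an H3K27me3 peak of 391 bp (3L:9968841-9969231, fold 1.79), and the control list had none within 49.7 kb. A second Cut knockdown H3K27me3 peak, of 703 bp, lay beyond the gene on CG6674, over an H3K27ac peak of 632 bp there. H3K27ac covered 1.33 kb of the span plus 500 bp in the Cut knockdown and 1.12 kb in the control.

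Dredd is the initiator caspase of the immune deficiency (IMD) pathway, in which it cleaves the NF-kappaB factor Relish. Its span (X:633622-635545) was the only one of the 10 where H3K27me3 lay wholly outside H3K27ac. The Cut knockdown had an H3K27me3 peak of 723 bp with a fold of 1.79 (X:633944-634666), which covered 37.6% of the gene, and the control had none. That peak was not left at -log10 q 2 or above, at a fold of 2 or above or after the trim to equal length. No H3K27ac peak of either genotype lay on the span. Beside the gene the genotypes differed: the control had an H3K27ac peak of 3389 bp over the neighbouring gene Mybbp1A that ended 206 bp from Dredd, and the Cut knockdown had none there. The nearest Cut knockdown peak, on su(sable), was 454 bp away on the other side. Within 5 kb H3K27ac covered 1.35 kb in the Cut knockdown and 4.72 kb in the control.

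Of the effector caspases, which cleave the cell's proteins, Drice stood out by its H3K27ac. The Cut knockdown had an H3K27ac peak of 940 bp inside the gene (3R:29799927-29800866, fold 2.50), and the control had none on the span (3R:29799658-29801584). A second Cut knockdown peak, of 540 bp, lay 384 bp from the lower end of the gene on the neighbour Rnb, with a fold of 3.53. That fold ranked 46th of the 25519 peaks of its list. The control had neither peak. Its nearest H3K27ac peak, of 3651 bp over Rnb and sro, ended 1156 bp from Drice and had a fold of 1.88. The difference at Drice was 1.06 kb in the Cut knockdown against none in the control. It was 0.940 to 1.06 kb under each peak threshold and overlap rule tried. These rules only remove peaks, so with no control peak there they could not reverse the difference. The trim to equal length shortened only the control H3K27ac list. Over the wider 5 kb surroundings the genotypes were level, at 5.68 kb in the Cut knockdown and 5.64 kb in the control. No H3K27me3 lay on Drice in either genotype. In the Cut knockdown a peak of 5822 bp, the widest H3K27me3 peak at any of the 10 genes, began 1983 bp past its upper end and ran over CG7789, ca and ncd, a kinesin motor gene.

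Dcp-1, the second main effector caspase, lies wholly inside the span of pita, which encodes a zinc finger insulator protein, so its peaks cannot be assigned to 1 of the genes. H3K27ac covered 1.84 kb of the span (2R:23551313-23553547) in both genotypes, through a peak of 2534 bp in the Cut knockdown and one of 2386 bp in the control. Both peaks ended at the same base. H3K27me3 in the Cut knockdown lay in 2 peaks, one of 250 bp inside that acetylated stretch and one of 1208 bp that began 7 bp after its end. Together they covered 28.5% of the gene, and the control had no H3K27me3 there.

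Decay, an effector-type caspase with a smaller known part in development, had the highest H3K27me3 share of the 10 genes. In the Cut knockdown 2 peaks, of 922 and 731 bp, covered 1.19 kb of its 1.99 kb (3R:16499058-16501050), and the control had none. The second, at the upper end, had a fold of 2.16, the highest of the 33 H3K27me3 peaks at these genes. H3K27ac went the other way, with 0.270 kb on the span in the Cut knockdown and 1.14 kb in the control. At the lower end, the control H3K27ac peak of 1052 bp (3R:16498845-16499896) and the Cut knockdown H3K27me3 peak of 922 bp (3R:16498931-16499852) occupied almost the same bases, and Cut knockdown H3K27ac covered 18 bp of that H3K27me3 peak. After the trim to equal length the H3K27ac difference at Decay turned to 0.315 kb and no H3K27me3 was left on the gene.

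Damm, a caspase whose role is less well defined, had neither mark on its span (2R:11864112-11866383) in either genotype. The nearest H3K27ac lay 2143 bp away in the Cut knockdown and 747 bp away in the control. An H3K27me3 peak of 886 bp in the Cut knockdown lay 3538 bp away over Mgtor, which encodes a nuclear pore protein, with 804 bp of it inside H3K27ac of the same genotype.

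Dark is the fly homologue of Apaf-1. Its span (2R:17020027-17026703) held the shortest H3K27me3 among the 8 marked genes, a peak of 227 bp in the Cut knockdown, and none in the control. H3K27ac covered 1.09 kb of it in the Cut knockdown and 2.20 kb in the control. Over its neighbour Paip1 the same stretch had peaks of different shape in the genotypes. In the Cut knockdown H3K27ac over Paip1 was split into peaks of 310, 339 and 455 bp, the last with a fold of 3.22 (145th of its list), under an H3K27me3 peak of 2384 bp. In the control a single H3K27ac peak of 3023 bp with a fold of 2.05 spanned the stretch. The H3K27me3 peak ended 605 bp and the control H3K27ac peak 606 bp from Dark.

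**Figure D3:**
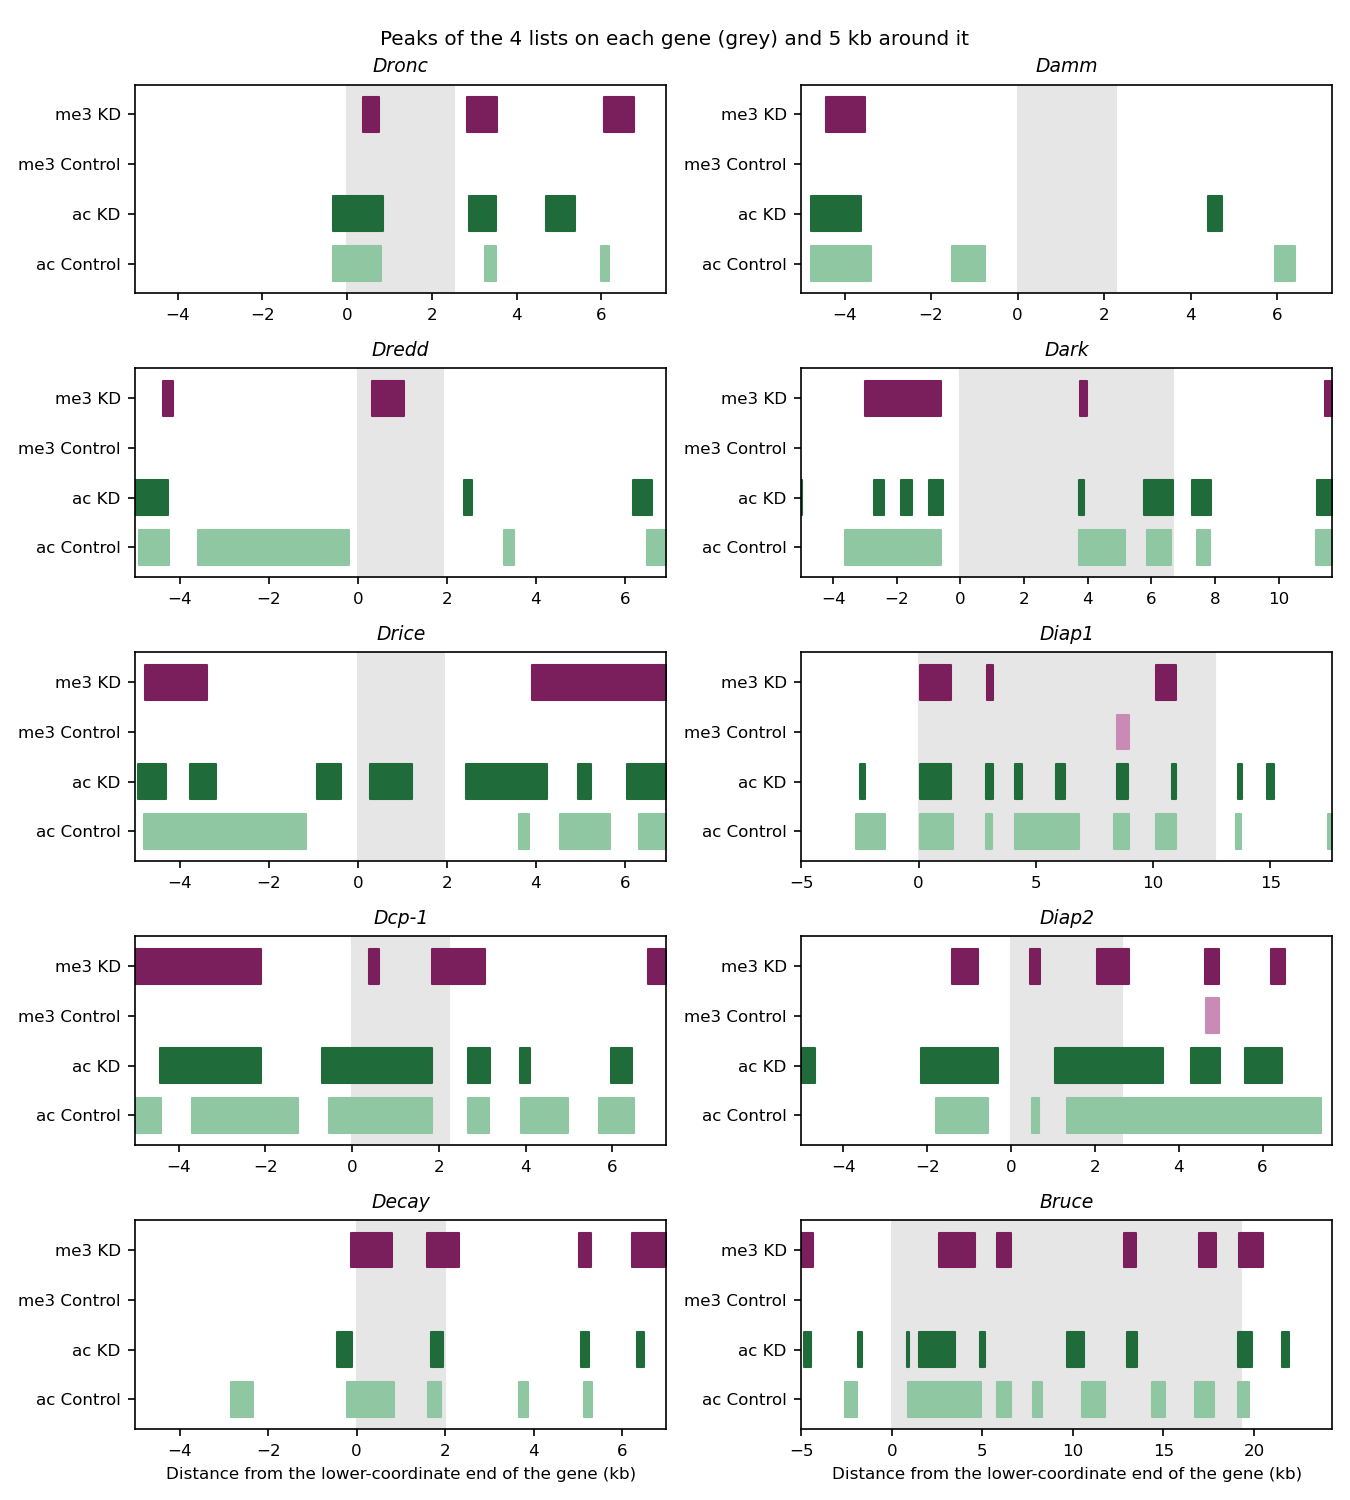
Peaks of the 4 lists along each gene, with the distance from the lower-coordinate end of the gene (kb) on the horizontal axis, the gene span in grey and 5 kb shown on either side (peaks are clipped there); rows from the top are H3K27me3 in the Cut knockdown (me3 KD) and the control, and H3K27ac in the Cut knockdown (ac KD) and the control. The control H3K27me3 row is empty except at Diap1 and beside Diap2, and the Cut knockdown H3K27me3 peaks mostly stand above an H3K27ac peak of one genotype or the other.

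The 3 inhibitor genes made up 63.9% of the summed span length, and held 71.1% of the H3K27me3 on the spans in the Cut knockdown. They held 63.2% of the H3K27ac on the spans in the Cut knockdown and 72.7% in the control. Diap1, a ubiquitin ligase that binds Dronc and the effector caspases and is the main target of Reaper, Hid and Grim, was the only gene of the 10 with H3K27me3 on its span in both genotypes. The peaks were at different places along its 12.6 kb (3L:16038410-16051034). The Cut knockdown had peaks of 1318, 249 and 856 bp, and the control had 1 of 484 bp (3L:16046881-16047364) that overlapped none of them. The first Cut knockdown H3K27me3 peak (3L:16038471-16039788) and a Cut knockdown H3K27ac peak (3L:16038471-16039786) shared their first base and ended 2 bp apart. The third (3L:16048549-16049404) matched a control H3K27ac peak (3L:16048536-16049381), where Cut knockdown H3K27ac was 148 bp long. The control H3K27me3 peak also lay inside acetylated chromatin, in an H3K27ac peak of 617 bp with a fold of 2.68, the 60th highest of the 25941 control peaks. At that place the Cut knockdown had H3K27ac of 482 bp with a fold of 2.32 and no H3K27me3. H3K27ac covered 2.89 kb of Diap1 in 6 peaks in the Cut knockdown and 5.85 kb in 5 peaks in the control. Most of that difference came from 1 stretch, where the control had a peak of 2726 bp and the Cut knockdown had peaks of 298 and 369 bp. When only folds of 2 or more were kept, the difference at Diap1 was 1.43 kb in the other direction. That bound kept 80.3% of the Cut knockdown and 32.6% of the control H3K27ac list. After the trim of the H3K27me3 list no Cut knockdown peak was left on Diap1 and the difference was -0.484 kb.

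Diap2, which restrains Drice and also acts in the IMD pathway, had 0.870 kb of H3K27me3 in the Cut knockdown and none in the control on its span (2R:15932170-15934825). Its peak of 764 bp at the upper end (2R:15934218-15934981) had a fold of 2.16 and the highest -log10 q of the 33, at 2.59. It was the only Cut knockdown H3K27me3 peak on the 10 spans left after the same trim, which did not touch the control list. The peak lay wholly inside a Cut knockdown H3K27ac peak of 2573 bp, which ran on over bug. The control had there the widest H3K27ac peak at any of these genes, 6057 bp over Diap2, bug and Mlf. On the span plus 500 bp H3K27ac covered 2.30 kb in the Cut knockdown and 1.97 kb in the control. Within 5 kb the order turned, at 6.33 kb in the Cut knockdown and 7.46 kb in the control. The only place near these genes where H3K27me3 peaks of both genotypes overlapped was on Mlf, with a peak of 334 bp in the Cut knockdown and one of 323 bp in the control.

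Bruce encodes a giant ubiquitin-conjugating enzyme with an inhibitor of apoptosis domain and is the longest of the genes, at 19.3 kb (3R:10312039-10331353). The Cut knockdown had 5 H3K27me3 peaks on it, of 660 to 2013 bp, and the control had none. H3K27ac covered 4.07 kb of the span in the Cut knockdown and 8.55 kb in the control. Several of the H3K27me3 peaks coincided with control acetylation. The widest, of 2013 bp, had a fold of 1.62, which ranked 18526th of the 18692 peaks of its list. It lay wholly inside a control H3K27ac peak of 4015 bp with a fold of 1.80, and 876 bp of it lay in Cut knockdown H3K27ac. A Cut knockdown H3K27me3 peak of 743 bp (3R:10317854-10318596) lay where the control had an H3K27ac peak of 781 bp (3R:10317861-10318641), and one of 951 bp (3R:10328984-10329934) lay where the control had one of 1055 bp (3R:10328800-10329854). The Cut knockdown had no H3K27ac at the places of the last 2. At the upper end both genotypes had an H3K27ac peak, of 777 bp with a fold of 2.75 in the Cut knockdown and of 622 bp with a fold of 2.33 in the control, and an H3K27me3 peak of 1356 bp in the Cut knockdown ran from there over CG12818. The H3K27ac difference at Bruce, -4.40 kb on the span plus 500 bp, was 1.73 kb when only folds of 2 or more were kept and 1.87 kb after the trim to equal length. No H3K27me3 was left on Bruce at -log10 q 2 or above, at a fold of 2 or more or after the trim. None was left without peaks that overlapped H3K27ac.

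The places of both marks were then set against each other over all 10 genes. Of the 17 Cut knockdown H3K27me3 peaks on the spans, 13 overlapped an H3K27ac peak of the same genotype (76.5%, 95% exact Clopper-Pearson interval 50.1 to 93.2%) and 16 one of either genotype (94.1%, 71.3 to 99.9%). Intervals cover counting error only, and peaks of 1 library are not independent samples of a genotype. Over the whole Cut knockdown list the shares were 62.3 and 84.2%. The peak on Dredd overlapped neither. None of the 17 overlapped a control H3K27me3 peak, which allows a share of up to 17.6% by the limit of 3 counts in 17 and of up to 19.5% by the exact interval, and 13.0% of the whole list did. These counts used the whole peak, also where it ran beyond the span. The peaks of 922 bp on Decay and 1208 bp on Dcp-1 met Cut knockdown H3K27ac only beyond the span. By bases on the spans alone, 4.91 kb of the 11.0 kb lay in Cut knockdown H3K27ac (44.7%). Control H3K27ac alone held 4.54 kb (41.4%), and 1.54 kb lay in neither (14.0%). Over the whole list 33.3% of the bases lay in Cut knockdown H3K27ac and 39.7% in neither. Genes differed among themselves. All of the Dronc bases lay in Cut knockdown H3K27ac, as did 70.1% at Diap1 and 69.9% at Diap2. At Bruce 34.4% did and at Decay 22.6%, and at both most of the rest lay in control H3K27ac alone. At Dcp-1 39.2% did and the other bases lay in no H3K27ac. In the labels the antibodies to both marks have the same catalogue number. Its part in the overlap was not tested.

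**Figure D4:**
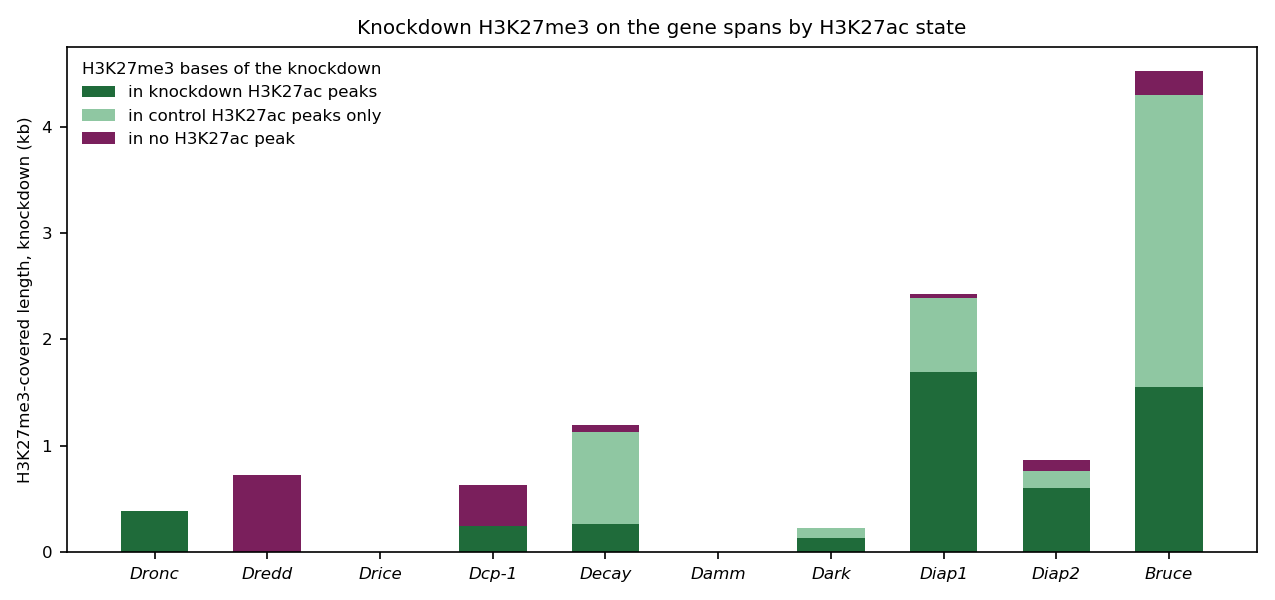
Length of Cut knockdown H3K27me3 on each gene span (kb), divided into bases that lie in Cut knockdown H3K27ac peaks, in control H3K27ac peaks only, and in no H3K27ac peak; the lists are 1 library each. Control H3K27ac alone takes the largest part at Bruce (2.74 of 4.52 kb) and Decay (0.861 of 1.19 kb), Cut knockdown H3K27ac the largest at Dronc, Dark, Diap1 and Diap2, and the Dredd bar has no H3K27ac.

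H3K27ac places were more often shared between genotypes. Of the 19 Cut knockdown H3K27ac peaks on the spans, 17 overlapped a control peak (89.5%, 66.9 to 98.7%, against 66.3% of the whole list). The exceptions were the peak inside Drice and a peak of 584 bp in Bruce. Of the 20 control peaks, 15 overlapped a Cut knockdown peak (75.0%, 50.9 to 91.3%, against 58.3% of the whole list). Of the other 5, Bruce held 4 and Diap2 1. Peaks on the spans had a median width of 584 bp in the Cut knockdown and 949 bp in the control, where the medians of the whole lists were 432 and 625 bp.

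Within their own lists the H3K27me3 peaks at these genes were not high. The 33 Cut knockdown peaks had folds of 1.62 to 2.16 with a median of 1.86, and 13 of them lay above the list median of 1.89. The highest fold of that list was 3.61. The 2 control peaks, at Diap1 (1.77) and on Mlf beside Diap2 (1.61), lay below the control median of 1.86. Only 4 of the 33 Cut knockdown peaks reached a -log10 q of 2, against 27.9% of the whole list. Of those 4, 3 lay on a span, at Decay, Diap1 and Diap2. H3K27ac peaks reached further up. The highest folds in the Cut knockdown were the Drice neighbour peak (3.53), a peak of 138 bp on Mbs beside Diap1 (3.52, 49th of the list) and the Paip1 peak beside Dark (3.22). In the control the highest was the peak inside Diap1.

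**Figure D5:**
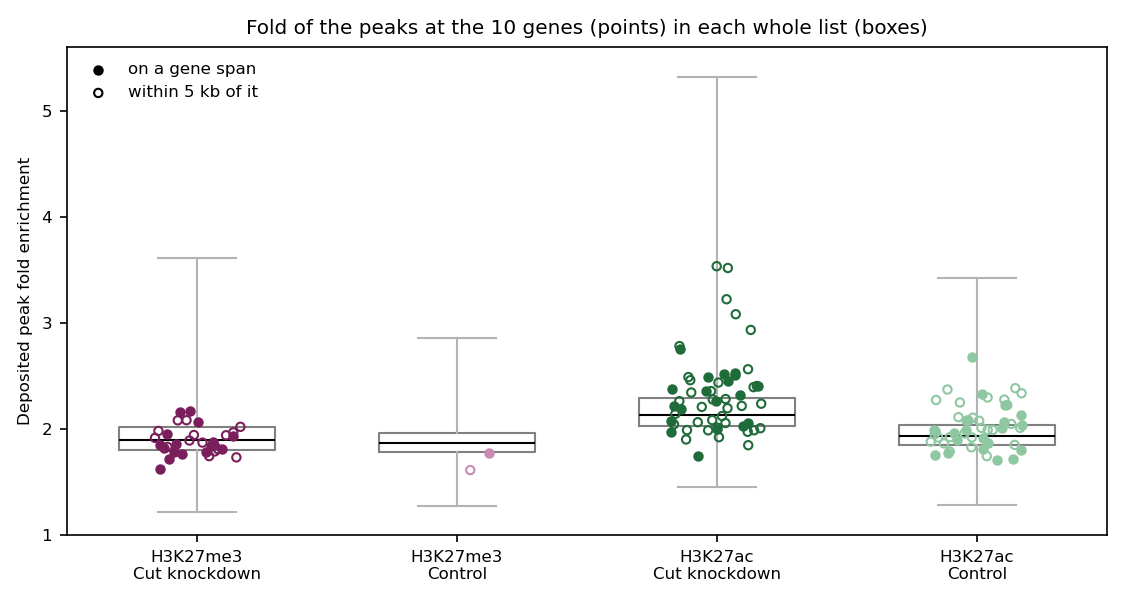
Deposited fold enrichment of each peak on a gene span (filled points) or within 5 kb of it (open points), beside boxes of each whole list (line at the median, box from the lower to the upper quartile, whiskers to the lowest and highest peak). The H3K27me3 points of the Cut knockdown lie between 1.62 and 2.16 around the list median of 1.89, and a few H3K27ac points of the Cut knockdown rise above 3.

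The other genes of the pathway gave the setting. Of 35 listed, 34 matched the gene table, and Tango7 was not analysed here. H3K27me3 lay on 27 of the 34 spans in the Cut knockdown (79.4%, against 61.6% of all genes) and on 8 in the control (23.5%, against 11.0%). These genes were longer, with a median span of 3.80 kb against 2.16 kb over all genes. The mean share of the span covered was close to that of all genes, at 22.1% against 21.5% in the Cut knockdown. In the control it was 2.88% against 2.68%. H3K27ac lay on or within 500 bp of 29 in the Cut knockdown (85.3%, against 76.9%) and of 28 in the control (82.4%, against 80.1%). The covered share of H3K27me3 was higher in the Cut knockdown at 25 genes, lower at 3 and equal at 6, with a median difference of 14.2 percentage points. That of H3K27ac was higher at 10, lower at 20 and equal at 4, with a median of -3.67 points. Over all genes, H3K27me3 cover was higher in the Cut knockdown at 59.7% and lower at 2.69%. H3K27ac cover of the span was higher at 27.1% of all genes and lower at 54.1%, so these directions were those of the genome.

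By covered share of the span, the largest H3K27me3 differences were at imd, the adaptor of the IMD pathway (2.66 kb in the Cut knockdown, none in the control), at Acn (2.25 kb, none in the control) and at the stress kinase gene Ask1 (3.19 kb, none in the control). Lower cover in the Cut knockdown was found at wgn, a receptor of the ligand Eiger (none, against 0.384 kb in the control), at egr, which encodes Eiger (0.234 kb, against 0.378 kb), and at hid (0.397 kb, against 0.695 kb). For H3K27ac the difference toward the Cut knockdown was largest at Fadd, the adaptor of Dredd (0.639 kb, none on the span in the control). The control had an H3K27ac peak within 500 bp of Fadd. Next were the caspase gene Strica (0.974 kb, against 0.596 kb) and grim (0.146 kb, none in the control). The H3K27ac difference toward the control was largest at Ask1 (1.27 kb in the Cut knockdown, 5.23 kb in the control). HtrA2, a mitochondrial protease gene (0.570 kb, against 2.09 kb), and Det (none, against 0.387 kb) followed. The activators rpr, grim and hid carried H3K27me3 in both genotypes, as did 1 of the 10 genes above and 9.73% of all genes. Their spans had 0.625, 0.734 and 0.397 kb of it in the Cut knockdown and 0.282, 0.229 and 0.695 kb in the control, and skl had neither mark on its span.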

How the data were processed

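Peak lists of 4 libraries were analysed, 1 for each of 2 marks in each genotype. Per the labels' protocols, fixed chromatin was digested with micrococcal nuclease and then sonicated, libraries were single-end, and input DNA served as control. Open chromatin is digested more readily, which can shift fragment yield between regions. The submitters' processing notes name SICER, MACS2, Bowtie2 and FastQC, with dm6 as build. The sources used here give no versions, roles or thresholds. The lists were called by the authors for each library alone. Each peak has the authors' deposited fold enrichment (a ratio over background), -log10 p and -log10 q, and a whole-number score. The lowest deposited -log10 q was 1.01 in each list.

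Starts are 0-based in the files and 1-based here. Peaks on other sequences than the 6 arms were set aside, overlapping peaks were merged, and 1 bp of overlap was enough for a call. Gene spans came from RefSeq (release 6), which gives no strand or transcript start there, so ends are named by coordinate. No sequence is shown. The interval code (Python 3.11.15, pandas 2.3.3) was tested on simulated data. All 10 members are named, with the pathway genes at the 3 largest differences in covered share in each direction and the activators. Members and lists were chosen with earlier results of these data known. A reciprocal overlap bound was added after the data were seen. Alternatives were a -log10 q or a fold of at least 2, equal covered length, 50% of a peak in the window, other windows, and H3K27me3 without peaks on H3K27ac.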

Additional observations from a re-analysis of the deposited data

How the results depend on the processing

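The 8 genes with H3K27me3 in the Cut knockdown became 3 at -log10 q 2 or above, 3 at a fold of 2 or above, 1 with the longer list trimmed to equal covered length and 1 without peaks that overlapped H3K27ac. The 1 in the control became 0, 0 and 0 in the first, second and last of these, and 2 within 5 kb. In that order, 2.94, 2.13, 4.46 and 23.2% of all genes had a control peak. The summed H3K27me3 difference of 10.5 kb was 1.86, 1.86, 0.124 and 0.723 kb in these 4 settings and 28.7 kb within 5 kb. Its sign did not change, but only Diap1 had control H3K27me3 on its span, so filters could hardly reverse it. After the trim the sum rested on Diap2 at 0.608 kb and Diap1 at -0.484 kb. The summed H3K27ac difference of -7.85 kb was 0.936 kb at -log10 q 2 or above, 6.47 kb at a fold of 2 or above, 1.88 kb after the trim and -18.3 kb within 5 kb. At that fold it was 2.34 kb at Dcp-1, 1.43 kb at Diap1 and 1.73 kb at Bruce. After the trim it was 0.315 kb at Decay and 1.87 kb at Bruce, and within 5 kb it was -1.13 kb at Diap2. At -log10 q 2 or above, H3K27ac marked 6 of the 10 genes in the Cut knockdown (37.2% of all genes) and 4 in the control (29.6%). Of the 34 other pathway genes, H3K27me3 then lay on 9 in the Cut knockdown (19.8% of all genes) and 1 in the control (2.94% of all genes). H3K27ac then lay on 16 in the Cut knockdown (37.2% of all genes) and 14 in the control (29.6%). The share of H3K27me3 peaks on the spans that overlapped H3K27ac was 100% of 3 peaks at a fold of 2 or above, 100% of 1 after the trim, 66.7% of 3 at -log10 q 2 or above and 73.3% of 15 with 50% of the peak on the span. The cause was not tested. No paired analysis was possible because each group holds 1 library. Depth is unknown, and no peak means only that the signal missed the authors' threshold.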

Other observations

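Some Cut knockdown H3K27me3 peaks at the 10 genes had nearly the same ends as an H3K27ac peak. A bound of 80% overlap of both peaks, set after the data were seen, was met by 7 of the 33 (21.2%), against 21.1% of the whole list of 18692. They were 3 peaks on Diap1, 2 on Bruce, 1 on Decay and 1 beside Dronc on CG6674. Of the Diap1 peaks, 1 matched H3K27ac of both genotypes, 1 that of the Cut knockdown and 1 that of the control. Those on Bruce and Decay matched control H3K27ac, and the one on CG6674 matched Cut knockdown H3K27ac.

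Several of the peaks taken here lie on neighbours. Of the 33 Cut knockdown H3K27me3 peaks, 23 also lay on another annotated gene, as did 44 of the 55 Cut knockdown and 37 of the 49 control H3K27ac peaks. The H3K27ac peak of the highest fold beside Dredd in the Cut knockdown lay on RpL36, a ribosomal protein gene, with a peak of 881 bp and a fold of 2.93 in the Cut knockdown and one of 686 bp and a fold of 1.95 in the control.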
